A study of Homo sapiens with 6 samples.

Results

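HMOX1 and HMOX2 encode the heme oxygenases, and NRF2 occupancy at both genes was read from 4 peak lists of HMC3 cells. HMC3 is an established human microglial cell line, and NRF2 was mapped by chromatin immunoprecipitation and sequencing (ChIP-seq). The groups were CDDO-Im (30 nM for 4 h, 2 libraries) and vehicle (2 libraries, assigned by title, since the labels give the same treatment text for every sample). CDDO-Im is a synthetic triterpenoid that activates NRF2, and no label names a genotype change or says whether the libraries of a group came from separate cultures. The 2 input libraries were not analysed here. The members are these 2 of 19974 protein-coding genes of the RefSeq table, chosen by name. All listed peaks with a summit inside either gene or within 100 kb of an end were taken, which gave 8 of the 28132 listed peaks.

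Heme oxygenases open the heme ring and release iron, carbon monoxide and biliverdin, which biliverdin reductase turns into bilirubin. HMOX1 is the inducible enzyme, switched on by oxidative stress and by heme itself, and HMOX2 is the constitutive one. NRF2 binds antioxidant response elements as a pair with a small MAF protein, and the repressor BACH1, which heme releases from DNA, competes for the same elements. In the mouse, Hmox1 is known for a pair of distal enhancers upstream of the gene that carry repeats of this element. Occupancy is not expression, and no RNA was measured here.

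All 8 peaks lay at HMOX1, and none lay at HMOX2. HMOX1 (chromosome 22, 35381096 to 35394207, GRCh38.p14) had 2 peaks in each of the 4 libraries, and the peaks of the libraries overlapped to form 2 regions. The distal region spanned chr22:35371769-35372408 and the proximal region chr22:35376864-35377373. Both lie before the start coordinate of HMOX1, a gene read toward higher coordinates, and so upstream of it and outside every gene of the RefSeq table. Their highest summits stood 8994 bp and 3974 bp from the start, and 5020 bp from each other. The number of peaks was the same in both groups (exact two-sided permutation p = 1.00, n = 2 and 2).

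**Figure D1:**
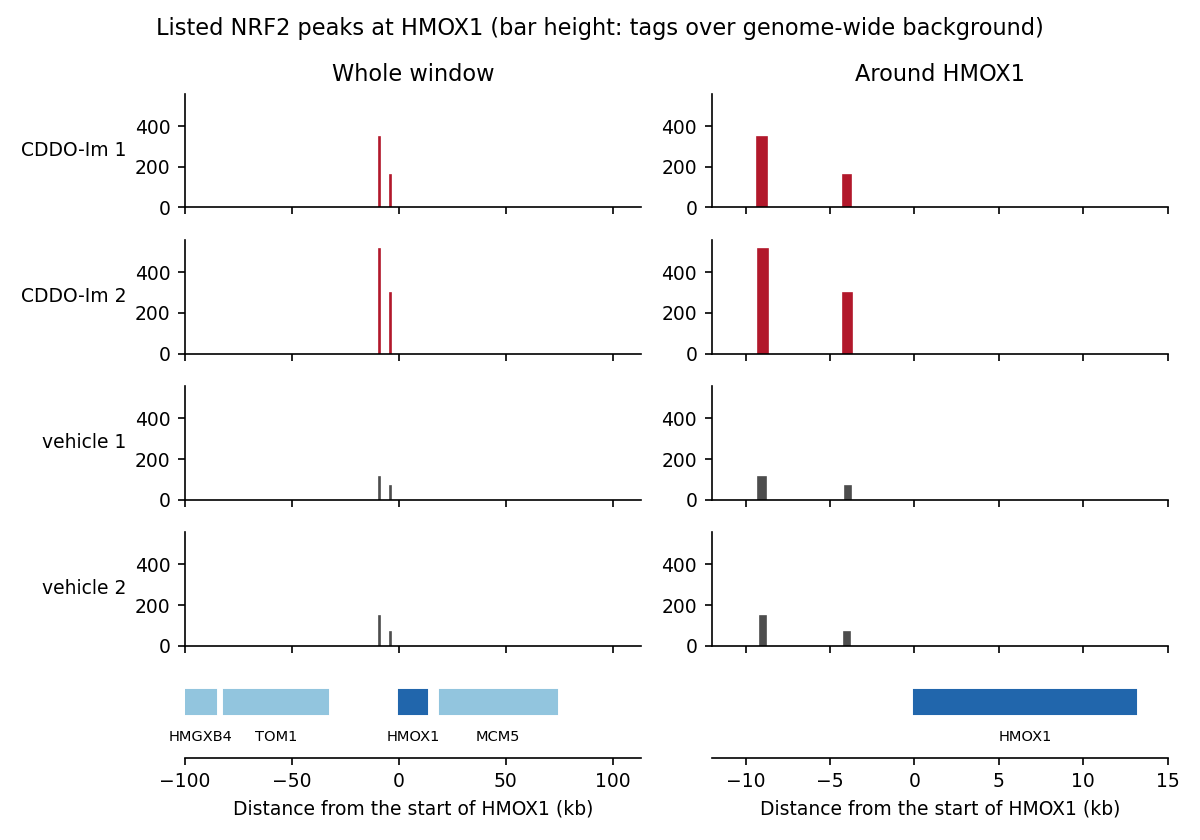
Listed NRF2 peaks by distance from the start of HMOX1 (kb), with 1 row per library, over the whole window (left) and around the gene (right). Bar height is tags over the genome-wide background on a linear axis, bar width is the peak's length, and blue boxes are protein-coding genes. Each library shows 2 peaks, both before the start, and the distal bar is the taller one in all 4.

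The distal region was among the most enriched sites of every list. Ranks here and below were taken among the peaks on chromosomes 1 to 22 and X, which are fewer than all listed peaks. Its fold enrichment, the authors' value for tags at the summit over background, ranked 1 of 3882 peaks in CDDO-Im 1 and 1 of 12244 in CDDO-Im 2. In the vehicle lists it ranked 1 of 4098 peaks in vehicle 1 and 2 of 7308 in vehicle 2. The fold enrichment itself was 86.4 and 134.6 in CDDO-Im 1 and 2, against 28.1 and 34.9 in vehicle 1 and 2. The authors' −log10 p values were 243.7 and 424.2 in the CDDO-Im lists, against 61.8 and 81.2 in the vehicle lists. The −log10 q values were 234.2 and 414.7 in the CDDO-Im lists, against 55.5 and 74.1 in the vehicle lists. By −log10 q the distal peak ranked 1 in both CDDO-Im lists, against 8 in vehicle 1 and 3 in vehicle 2.

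The proximal region stood lower in each list. Its fold enrichment ranked 54 in CDDO-Im 1 and 11 in CDDO-Im 2, against 16 in vehicle 1 and 72 in vehicle 2. The fold enrichment was 30.6 and 72.9 in the CDDO-Im lists, against 14.03 and 13.7 in the vehicle lists. The −log10 p was 77.9 and 210.8 in the CDDO-Im lists, against 27.2 and 26.5 in the vehicle lists. The −log10 q was 72.2 and 204.2 in the CDDO-Im lists, against 21.9 and 21.2 in the vehicle lists. By −log10 q the proximal peak ranked 46 and 13 in CDDO-Im 1 and 2, against 68 and 126 in vehicle 1 and 2.

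**Figure D2:**
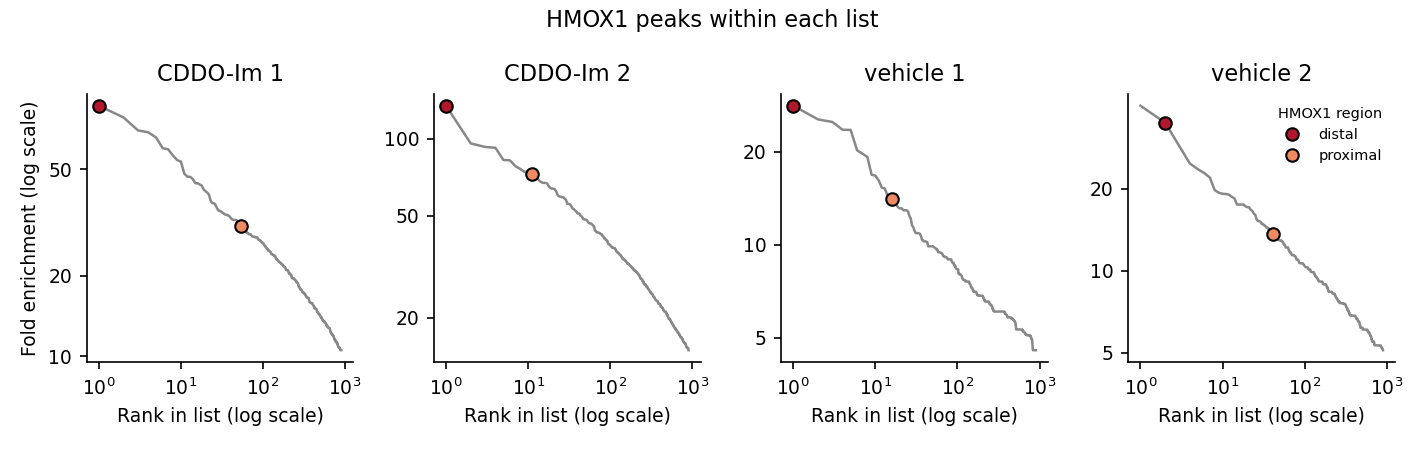
Fold enrichment of the peaks of each list against their rank in it, for the first 900 peaks. Only peaks on chromosomes 1 to 22 and X outside peak-dense megabases are ranked. Axes are logarithmic, and each list has its own scale. The HMOX1 distal peak is first in 3 lists and second in vehicle 2, and the proximal peak lies between rank 11 and rank 54.

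NRF2 tags at the distal region were higher in both CDDO-Im libraries than in both vehicle libraries. Whole tags at the summit, recovered from the deposited fold enrichment and p, were 114 and 188 in CDDO-Im 1 and 2, against 36 and 46 in vehicle 1 and 2. The exact 95% Poisson intervals, which cover counting error only, were 94.0 to 137 and 162 to 217 for CDDO-Im, against 25.2 to 49.8 and 33.7 to 61.4 for vehicle. No interval of one group overlapped one of the other. Unscaled tags were higher in both CDDO-Im libraries at 88.3% of the 230 regions listed in all 4 libraries outside peak-dense megabases. How many of these regions also had separate intervals was not counted, so the separation is not a result about HMOX1. The 2 CDDO-Im libraries also differed from each other by more than counting error, with CDDO-Im 2 higher. This order is not particular to HMOX1. At the regions of other heme and iron genes given below, CDDO-Im 2 also held more tags in all but LRP1.

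Tags were divided by the genome-wide background of each library, the lowest background recovered in its list. This background, a measure of depth, was 0.332 and 0.367 tags for CDDO-Im 1 and 2, against 0.316 and 0.315 for vehicle 1 and 2. Tags over background at the distal region were then 344 and 512 with CDDO-Im, against 114 and 146 with vehicle. On the log2 scale they averaged 8.71 ± 0.41 with CDDO-Im and 7.01 ± 0.25 with vehicle (SD, n = 2 each). The difference of 1.70 (3.25-fold) was larger than the spread between replicates, with an exact two-sided permutation p of 0.333, the smallest that 2 against 2 libraries allow. Summed over libraries, 302 tags against 82 gave a ratio of 3.32 after scaling, with an exact 95% binomial interval of 2.59 to 4.29 for counting error only.

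At the proximal region too, tags were higher in both CDDO-Im libraries. It held 53 and 109 tags in CDDO-Im 1 and 2, against 22 and 22 in vehicle 1 and 2. The Poisson intervals were 39.7 to 69.3 and 89.5 to 131 for CDDO-Im, against 13.8 to 33.3 for each vehicle library. The intervals of the groups did not overlap. The share of other regions with such a separation was not counted, so it is not a result about HMOX1 either. Tags over background were 160 and 297 with CDDO-Im, against 69.7 and 69.9 with vehicle. The log2 difference was 1.64 (3.12-fold), with an SD of 0.63 among CDDO-Im libraries and 0.00 among vehicle libraries (exact two-sided permutation p = 0.333, n = 2 and 2). Summed tags were 162 against 44, a scaled ratio of 3.32 with an interval of 2.37 to 4.74. The CDDO-Im 1 peak also had a second whole-tag match, 31 tags, but this needs a local background of 0.0471 tags, below the lowest of 0.332 in that library.

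**Figure D3:**
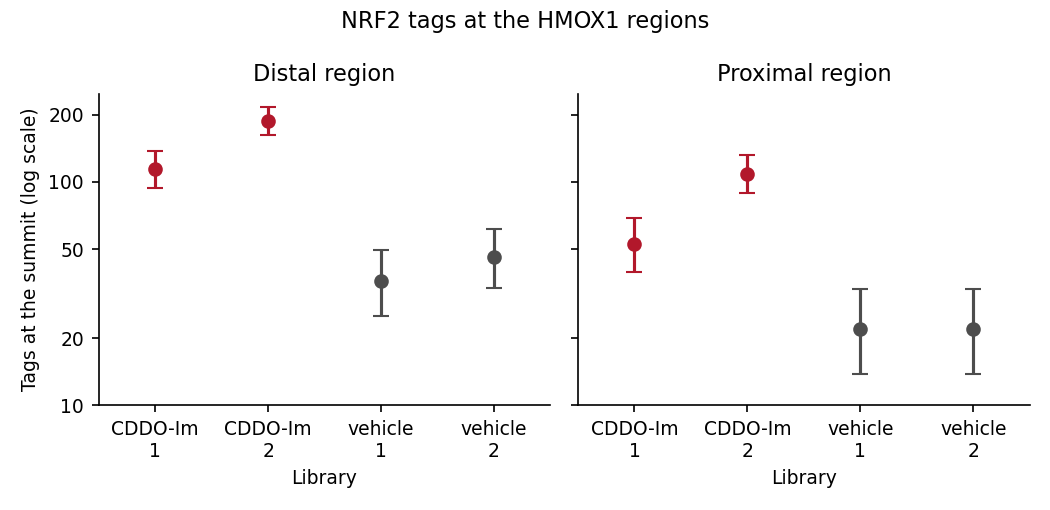
Tags at the summit of the distal (left) and proximal (right) HMOX1 region in each library, on a log axis. Points are recovered tags and bars their exact 95% Poisson intervals; both CDDO-Im points of each region lie above both vehicle points, and CDDO-Im 2 lies above CDDO-Im 1.

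The change at HMOX1 was of ordinary size among the sites that all libraries listed. Outside peak-dense megabases, 87.0% of the 230 regions listed in all 4 libraries placed the CDDO-Im pair of libraries above the vehicle pair in tags over background (47.8% of 433 with those megabases included). The 2 HMOX1 regions are 2 of these, so their direction is near the background and is not a result about HMOX1. The median fold over the 230 regions was 3.21, with quartiles of 2.35 and 3.89. The distal region ranked 112 of 230 by size of change and the proximal region 127 of 230. By level, both stood higher in order. By tags over background the distal region ranked 14 and 8 of 230 in CDDO-Im 1 and 2, against 24 and 23 in vehicle 1 and 2. The proximal region ranked 57 and 26 in CDDO-Im 1 and 2, against 35 and 42 in vehicle 1 and 2. By lowest fold enrichment over the 4 libraries, the distal region was 1 of 230 and the proximal region 9 of 230, with lowest values of 28.1 and 13.7.

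A further 21 of the 230 regions had more vehicle tags than the distal HMOX1 region, but at a far higher local background. Their local background was 69.4 to 238 times the genome-wide one, while at the distal region it was 1.00 to 1.10 times. Their lowest fold enrichment was 1.69 to 3.60, and their CDDO-Im to vehicle ratio 0.764 to 1.04. In none of the 21 were both CDDO-Im libraries above both vehicle libraries. At the proximal region the local background was 2.31 and 1.38 times the genome-wide one in CDDO-Im 1 and 2, against 2.02 and 2.17 times in vehicle 1 and 2.

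**Figure D4:**
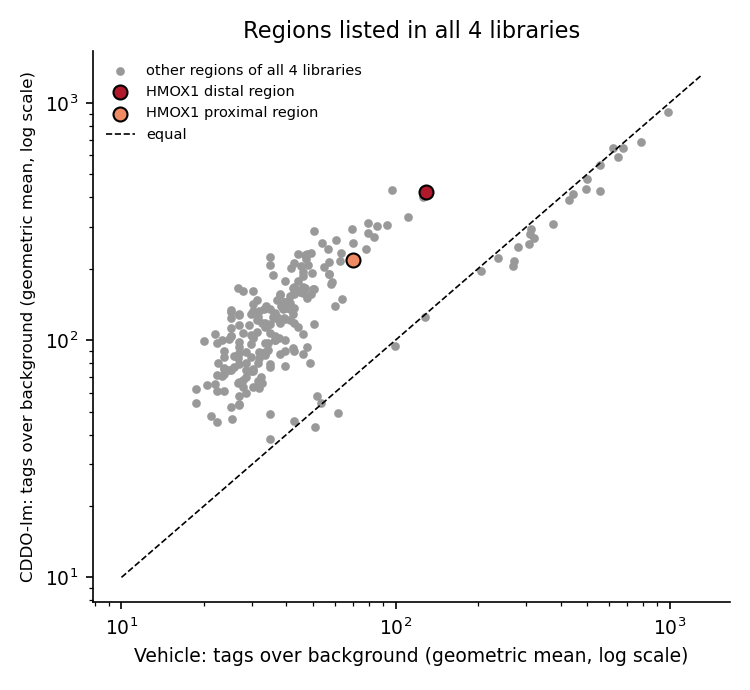
Tags over background in vehicle (x) and CDDO-Im (y), as geometric means of 2 libraries on log axes, for the 230 regions listed in all 4 libraries outside peak-dense megabases. Both HMOX1 regions lie above the line of equal values with most other regions, and the points on that line at the right are the regions with more vehicle tags than HMOX1.

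The proportion between the 2 HMOX1 regions was also read within each library. The ratio of proximal to distal tags, which needs no depth measure, was 0.465 (exact 95% binomial interval 0.329 to 0.649) in CDDO-Im 1 and 0.580 (0.454 to 0.738) in CDDO-Im 2. It was 0.611 (0.342 to 1.07) in vehicle 1 and 0.478 (0.274 to 0.811) in vehicle 2. The values of the groups interleaved, and all 4 intervals overlapped. A difference in response between the regions was thus not detectable at this depth.

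The summits of the distal region fell at nearly one place. They stood 8987 bp and 8994 bp before the start of HMOX1 in CDDO-Im 1 and 2, against 8999 bp and 8992 bp in vehicle 1 and 2, a spread of 12 bp. Over the 230 regions the median spread was 36.5 bp, and 17 had a smaller one than the distal region. The proximal summits stood 3996 bp and 3974 bp before the start with CDDO-Im, against 3956 bp and 3953 bp with vehicle, a spread of 43 bp. A smaller spread than this was seen at 137 of the 230 regions. The listed peaks were longer with CDDO-Im. Distal peaks measured 597 bp and 586 bp with CDDO-Im, against 471 bp and 351 bp with vehicle. Proximal peaks measured 450 bp and 510 bp with CDDO-Im, against 365 bp in each vehicle library. Both CDDO-Im peaks were longer than both vehicle peaks in 83.9% of the 230 regions, so this too is near the background.

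HMOX1 was one of few genes with a pair of such regions close by. This was counted over all 433 regions of all 4 libraries, with peak-dense megabases included. Of 19974 protein-coding genes, 0.801% (160 genes) had such a region inside the gene or within 10 kb of it. Among these 160, 5 had 2 or more (0.0250% of all genes). A region can be counted for more than 1 neighbouring gene, so these 5 genes need not be 5 separate loci. The other 4 were DUX4, HSPA1A, HSPA1B and HSPA1L, named after their values were seen. HSPA1A and HSPA1B are near-identical neighbouring copies of a heat shock gene beside HSPA1L, and DUX4 is a repeated gene. Tags at these genes may thus be uncertain, which was not tested. Among the 230 regions outside those megabases, 18 had another of the 230 within 5020 bp, the spacing at HMOX1. Both HMOX1 regions are among the 18.

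No other listed peak lay near HMOX1. TOM1, which encodes a protein of endosomal sorting, ends 24124 bp from the closest distal summit, and MCM5, a subunit of the replicative helicase, begins 22997 bp from the closest proximal summit. No peak lay inside TOM1, MCM5, HMGXB4 or HMOX1 itself. The closest peaks of the CDDO-Im lists beyond 100 kb were 729890 bp (9 tags) and 729858 bp (10 tags) away in CDDO-Im 1 and 2, past the end of HMOX1 and nearest to APOL3.

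HMOX2 (chromosome 16, 4474736 to 4510347) had 0 peaks within 100 kb in each CDDO-Im library and 0 in each vehicle library (exact two-sided permutation p = 1.00, n = 2 and 2). The window also holds NMRAL1, DNAJA3 and CDIP1 among other genes, and none of them held a peak there. The closest peaks beyond 100 kb lay past the end of HMOX2, nearest to SEPTIN12, at 276990 bp (10 tags) in CDDO-Im 1 and 276972 bp (23 tags) in CDDO-Im 2. In vehicle 1 one lay 276965 bp away (9 tags), and in vehicle 2 the closest was 1242842 bp away (6 tags). A gene without peaks was common, since 53.1% of protein-coding genes had no listed peak within 100 kb in any library. The lowest tag number of a listed peak was 4 in every library, reached at the genome-wide background. A site at a higher local background would need more tags to be listed. The local background at HMOX2 is not known, since no peak was listed there. Occupancy at HMOX2 below the limit of listing was not detectable at this depth.

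The RefSeq promoter table matched 1 of the 2 genes, HMOX2, with 2 start sites. The 250 bases before its first start (GRCh38.p14, plus strand, chr16:4474486-4474735) are shown because they are the promoter of the paralog that no library listed. No letters are in capitals, since neither motif searched was found.

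HMOX2: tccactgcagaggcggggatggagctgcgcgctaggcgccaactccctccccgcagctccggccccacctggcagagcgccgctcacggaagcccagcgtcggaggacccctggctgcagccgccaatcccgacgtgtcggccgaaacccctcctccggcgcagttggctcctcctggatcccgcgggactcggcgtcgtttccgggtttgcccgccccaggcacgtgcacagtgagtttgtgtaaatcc

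The motifs were TGACNNNGC, the core of the antioxidant response element, and TGANTCA, the AP-1 element. Both were searched on both strands, and TGANTCA reads the same on either. Neither start of HMOX2 held a match to either motif. Of 35116 promoter windows of 250 bases, 10.9% held TGACNNNGC and 6.57% held TGANTCA. These letters are a description of the window and say nothing of NRF2 itself.

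Other genes of heme breakdown, heme and iron transport and their control were compared as a list of 20. Of these, 3 (15%) had a region of all 4 libraries inside the gene or within 10 kb, against 0.801% of protein-coding genes. A region of both CDDO-Im libraries lay that close to 6 (30.0%), against 5.79% of protein-coding genes, and a region of both vehicle libraries to 3 (15%), against 0.811%. Within 100 kb, 9 (45%) were near a region shared by the CDDO-Im lists, against 18.8%, 3 (15%) near one of all 4 libraries, against 3.16%, and 7 (35%) had no listed peak in any library, against 53.1%. These shares include regions in peak-dense megabases, and they describe a list drawn up with results of these data known.

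The enzymes next to heme oxygenase in the pathway differed in whether a peak was listed near them. POR, the reductase that supplies electrons to heme oxygenase, had a region inside the gene (chr7:75937783-75938311) with 51 and 85 tags in CDDO-Im 1 and 2, against 14 and 9 in vehicle 1 and 2. The groups did not overlap, with a ratio of 5.29 over background (exact two-sided permutation p = 0.333 at best, n = 2 and 2). That direction, like that of the FTH1 region and the first SLC48A1 region, was shared by 87.0% of the 230 regions listed in all 4 libraries, so it is near the background. BLVRA and BLVRB, the biliverdin reductases, had no listed peak within 100 kb in any library, and neither did BACH1. Of the same list, FLVCR2, CD163, NFE2L2 and KEAP1 had none either. Such absence held for 53.1% of protein-coding genes, so it is not a result about these genes.

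FTH1, the ferritin heavy chain that stores the released iron, had 148 and 283 tags over background with CDDO-Im, against 38.0 and 54.0 with vehicle, at a region 4415 bp outside the gene. SLC48A1, a transporter that brings heme out of endosomes and lysosomes, had a region inside the gene with 66.3 and 120 with CDDO-Im, against 34.9 and 31.8 with vehicle. A second SLC48A1 region held 11 and 22 tags in CDDO-Im 1 and 2, against 8 in vehicle 2, with no vehicle 1 peak. ABCG2, an exporter that also carries porphyrins, had 20 and 37 tags in CDDO-Im 1 and 2, against 9 in vehicle 2, with no vehicle 1 peak. The light chain gene of ferritin, FTL, had a region 1332 bp outside the gene, with 8 and 33 tags in CDDO-Im 1 and 2. LRP1, the receptor for heme bound to hemopexin, had one 8591 bp outside the gene, with 17 and 15 tags. Neither vehicle list held the FTL or the LRP1 region. Inside the gene or up to 10 kb away, 5.79% of protein-coding genes had a region shared by the CDDO-Im lists, against 0.811% for the vehicle lists. The share of CDDO-Im regions that both vehicle lists lacked was not counted, so these absences are not a result about FTL or LRP1. The distal HMOX1 region was above all of the heme-list regions named here in each library that listed them.

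**Figure D5:**
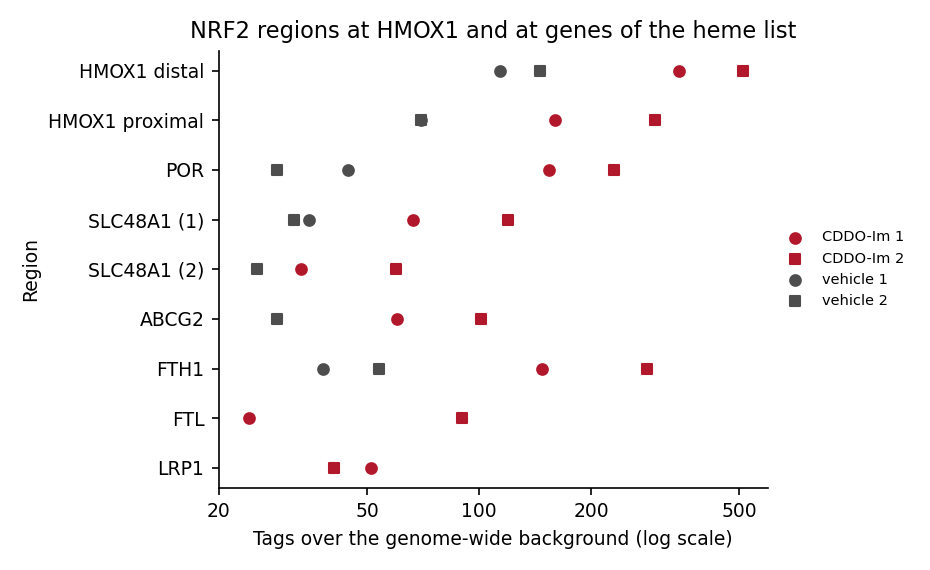
Tags over the genome-wide background (log axis) at the HMOX1 regions and at regions of both CDDO-Im libraries inside or within 10 kb of genes of the heme list. Red marks are CDDO-Im and grey marks vehicle libraries (circles for 1, squares for 2), and no mark means that the library listed no peak; the distal HMOX1 region is furthest right in every library.

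The genes with a pattern most like that of the distal HMOX1 region were found by distance. The pattern was log2 tags over background in the 4 libraries, taken over the 230 regions, each given to its nearest protein-coding gene. The region nearest to CYYR1, a membrane protein gene, was closest at 0.27 log2 units (Euclidean distance), with 368 and 435 tags over background with CDDO-Im, against 108 and 146 with vehicle. It lay 60309 bp outside CYYR1. LOC105369787 (0.69), CEBPB (1.02), PLEKHS1 (1.06) and MED20 (1.10) followed at the distances in brackets. CEBPB encodes a transcription factor, and its region lay 100059 bp outside the gene. The proximal HMOX1 region stood further off, at 1.86. With 4 libraries, this likeness is a description only.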

How the data were processed

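NRF2 ChIP-seq peak lists of 4 HMC3 libraries were used. Per the submitters' processing notes, the tools were MACS2 2.2.7.1, BWA 0.7.17 and bcl2fastq 2.15.0, with the builds hg38 and GRCm38 named. The control, the threshold and the treatment of duplicates in peak calling are not stated in these sources. Peaks carry 1 library name each, so the authors did not list them on pooled samples. The deposited lists hold per peak a fold enrichment (a ratio), a −log10 p, a −log10 q and a score. The score equals the −log10 q times 10 without its decimals. The fold, computed by the authors, served for description and ranks inside a list, for the lowest value over lists and, with p, for the recovery of tags on which the comparisons rest.

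Tags at each summit were recovered with SciPy 1.17.1 in Python 3.11.15, where fold is (tags + 1)/(background + 1) and p the Poisson probability of more tags (tolerance 0.001 plus 0.0002 of the value). Whole tags matched 100% of peaks, and 97.7% to 99.4% had a single match; otherwise the closest was taken. Library totals are not in the lists, so depth is known only as the recovered background, which also depends on the fragment length of peak calling. The lists held 4024 and 12433 peaks for CDDO-Im 1 and 2, against 4227 and 7448 for vehicle 1 and 2, with a median of 9 and 9 tags, against 7 and 8, on chromosomes 1 to 22 and X. Peaks there were joined where they overlapped by at least 1 bp. Dense megabases are the 77 megabases with more than 20 joined regions, which were mostly listed in vehicle 1, vehicle 2 and CDDO-Im 2. Genes came from RefSeq on GRCh38.p14. Libraries were compared by exact permutation tests. With 2 against 2 libraries, the two-sided p is 0.333 wherever the groups separate, whatever the spread. Differences between these libraries may be technical.

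Named genes were HMOX1, HMOX2, their neighbours, a heme list of 20 genes (values for up to 6 whose gene or 10 kb around it held a region of both CDDO-Im libraries) and the 5 genes most like HMOX1. Members, lists and tests were chosen with earlier results of these data known. Recovery of tags and joining of regions were tested on simulated data, where 1999 of 2000 tag numbers came back. The simulated peaks followed the same formulas at low backgrounds and lay well apart. Recovery at local backgrounds as high as in the regions with more vehicle tags than HMOX1 was not simulated. The alternatives tried were other depth measures, q thresholds, windows, joining rules, pairing and leaving out each library. Sequences of the HMOX1 regions and of the HMOX1 promoter were not used here. The closest vehicle peaks beyond the HMOX1 window are not reported here.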

Additional observations from a re-analysis of the deposited data

How the results depend on the processing

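The CDDO-Im minus vehicle difference at the HMOX1 regions kept its direction under every depth measure, joining rule and omission run. On the log2 scale it lay between 1.41 and 1.99 for the distal region and between 1.19 and 2.09 for the proximal region when each library was left out in turn. The lowest value of both came without CDDO-Im 2 and the highest without CDDO-Im 1. Without scaling of tags it was 1.85 and 1.79, and over the local background 1.70 and 1.87, where the proximal region ranked 80 of 230 by size of change in place of 127. With the other tag match of CDDO-Im 1, chosen after seeing the data, the proximal difference was 1.25. With library numbers as a replicate block the differences were again 1.70 and 1.64, with an exact sign permutation p of 0.5, the smallest that 2 pairs allow. The numbers share only a label, and the correlation of same-numbered deviations was -0.043 over 230 regions. The numbers of HMOX1 and HMOX2 peaks differed by 0 between groups with peaks held to a −log10 q of 5 or 10, in windows of 50 kb and 10 kb, under the block and without any 1 library. The share of regions of all libraries with more tags in both CDDO-Im libraries was 47.8% of 433 regions with dense megabases included, against 87.0% of 230 without them. It was 87.2% to 91.2% when each library was left out, which was chosen after seeing the data, as were 2 other depth measures for this share (87.8% and 84.3%). Fewer lists leave more regions in common: 498 of 546 regions were higher without vehicle 1, 332 of 372 without vehicle 2, 206 of 236 without CDDO-Im 1 and 204 of 234 without CDDO-Im 2. Few tags limit the vehicle values, since 22 tags leave an interval of 13.8 to 33.3.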
